A study of Mus musculus with 6 samples.

Results

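The peroxide defence of megakaryocyte–erythroid progenitors (MEPs) was described through 10 genes, chosen by symbol and matched to the Ensembl identifiers of the expression table. They are *Txnip*, *Txn1*, *Txnrd1*, *Prdx1*, *Prdx2*, *Prdx6*, *Gpx1*, *Gpx4*, *Cat* and *Sod1*. All 10 were among the 12101 genes of the table, and all 10 were among the 12088 genes that passed the filter on low values and were tested. The cells were MEPs of adult mice of the CD-1 strain, sorted by CD34 and CD16/32 from bone marrow cells positive for cKit and negative for Sca1 and lineage markers, and their RNA was sequenced. Every mouse, treated or not, carried a doxycycline-dependent *Nanog* transgene at *Col1a1* together with the reverse tetracycline transactivator at *Rosa26*, a locus active in nearly all tissues, so that the transactivator was not confined to blood cells. The 3 dox-treated replicates came from mice given doxycycline (dox) in the drinking water for 5 days, and the 3 untreated replicates from mice that received none. No group here received dox without the transgene, so dox itself and *Nanog* cannot be told apart. The labels do not say whether a replicate was one mouse or a pool, and p-values therefore measure only the spread between these libraries.

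Hydrogen peroxide is made when superoxide dismutases act on superoxide, and it leaks from respiration and from the oxidation of haemoglobin. Peroxiredoxins, glutathione peroxidases and catalase remove it. Thioredoxin, kept reduced by thioredoxin reductase with electrons from NADPH, recycles most peroxiredoxins, and glutathione serves the glutathione peroxidases. TXNIP, a member of the arrestin family, binds reduced thioredoxin and also lowers glucose uptake, and its gene is a well-known target of the glucose-responsive factors MondoA and ChREBP with their partner MLX. Red cells and their precursors are rich in several of these enzymes, peroxiredoxin 2 among them, since they carry iron, haem and oxygen together.

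The sequence in front of *Txnip*, the gene with the largest change among the 10, is shown for the elements it holds. The window runs from 250 bases before to 50 bases after the RefSeq start on GRCm38.p6, chr3:96557707-96558006, plus strand. Its 300 bases match NCBIM37, the build of the expression table, without a difference at chr3:96361630-96361929. Capitals mark, from left to right, a CCAAT box that reads on the minus strand, another on the plus strand, and a pair of E-box-like sites. The pair has the arrangement of a carbohydrate response element, the kind of site that MondoA and ChREBP are known to bind.

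Txnip promoter: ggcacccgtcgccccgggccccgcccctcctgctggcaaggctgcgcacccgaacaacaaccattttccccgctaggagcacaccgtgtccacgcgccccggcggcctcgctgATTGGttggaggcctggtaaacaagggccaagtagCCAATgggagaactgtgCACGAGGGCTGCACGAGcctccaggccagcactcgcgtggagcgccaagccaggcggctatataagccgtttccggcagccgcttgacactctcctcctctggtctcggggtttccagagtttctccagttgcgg

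This pair, searched on both strands as CACGNG and CNCGNG with 5 bases between them, was found in 120 of 32851 RefSeq promoter windows of the same length (0.365%), and *Txnip* was the one member with a match. The pattern leaves free the base at which both *Txnip* sites, CACGAG, differ from CACGTG. Its share is therefore a description and no test. A window was given for 9 of the 10 members, all except *Prdx6*, and *Gpx4* and *Txnrd1* had more than one start, which made 14 windows. The antioxidant response element core TGACNNNGC, a site for NRF2, occurred in the windows of *Prdx1*, *Txnrd1* and *Sod1* and in 12.4% of all windows. CCAAT was present in *Cat*, *Gpx4*, *Sod1*, *Txnip* and *Txnrd1* (37.4% of all windows) and TATAAA in *Prdx1*, *Sod1* and *Txn1* (13.6%). None of the 14 windows held the E-box CACGTG (7.15% of all windows), the GATA site in the form AGATAA (11.2%) or TAATGG, a core bound by NANOG (7.73%). Other forms of the GATA site were not searched for, and TGATAA stands in windows of *Gpx4*. These are matches of letters and were not measured as binding.

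Among the 10 genes, *Gpx1*, *Gpx4* and *Txnrd1* encode selenoproteins, in which a TGA codon is read as selenocysteine at the active site. The codon is shown in capitals between its neighbours, from the GENCODE coding sequences on NCBIM37.

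Gpx1, codon 47 of 201: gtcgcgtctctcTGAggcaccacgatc

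Gpx4, codon 129 of 253: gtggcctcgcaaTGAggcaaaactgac

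Txnrd1, codon 612: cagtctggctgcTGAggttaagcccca

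In *Gpx1* and *Gpx4* the codon lay within the coding sequence, whereas in *Txnrd1* it was the next to last codon before the following in-frame stop, and this annotation ended the protein there. The coding sequences of the other 7 members had no in-frame TGA before their stop. The 3 selenoprotein transcripts did not pass the test in either direction, as given with their values below.

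The libraries held from 11264803 to 16153600 reads over the genes of the table, so that one read was worth between 0.0642 and 0.0910 CPM (reads per 1000000 of the normalised library). *Nanog* itself had 17062, 19609 and 15959 reads in the dox-treated libraries and 9, 13 and 1 in the untreated ones. On the first principal component treated replicate 3 lay at -14.8, between the other treated libraries (-57.5 and -56.3) and the untreated ones (35.1 to 54.2), and it stood apart from all others on the second (51.7 against -20.2 to 4.83). Calls of the members and of the lists that change without it are given both ways.

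*Txnip* rose with dox and was the one member that passed the test on all 6 libraries. Its level was 719.5, 611.4 and 364.4 CPM in dox-treated replicates 1 to 3 and 169.4, 81.5 and 154.8 CPM in the untreated ones. Every treated library lay above every untreated one, with treated replicate 3 the lowest of its group and untreated replicate 2 the lowest of all. The mean was 565.1 ± 182.0 CPM with dox and 135.2 ± 47.1 CPM without (SD, n = 3 each), a 4.18-fold difference of the means. On the log2 scale the difference was 2.08 ± 0.37 (SE), with a 95% interval from 1.16 to 2.99 and an adjusted p of 0.034 in limma with Benjamini–Hochberg adjustment over all 12088 genes. The exact permutation test, two-sided, gave 0.1, the smallest p that 3 libraries against 3 can give. Over all genes tested, 4.59% passed the threshold of 0.05 upwards and 3.18% downwards.

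This call rested on all the libraries except treated replicate 3. Without that library the log2 difference was 2.36 (adjusted p = 0.017, limma). Without any single other one it ranged from 1.75 to 2.27 and the adjusted p rose above the threshold, to 0.108 without treated replicate 1, 0.121 without treated replicate 2, and 0.075, 0.072 and 0.093 without untreated replicates 1, 2 and 3. *Txnip* also varied more within groups than most genes of at least 50 CPM. The SD of its log2 level was 0.51 with dox and 0.58 without, at percentiles 97.5 and 99.3 of 4754 such genes.

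*Txnip* lies at chr3:96361880-96365806 on the plus strand of NCBIM37, the build of all gene positions given here. Of its 3031 exonic bases, 606 are shared with an antisense non-coding gene, Gm15441, which is not in the table analysed here. The use of strand in counting is not stated, so reads of both genes over these bases cannot be told apart.

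**Figure D1:**
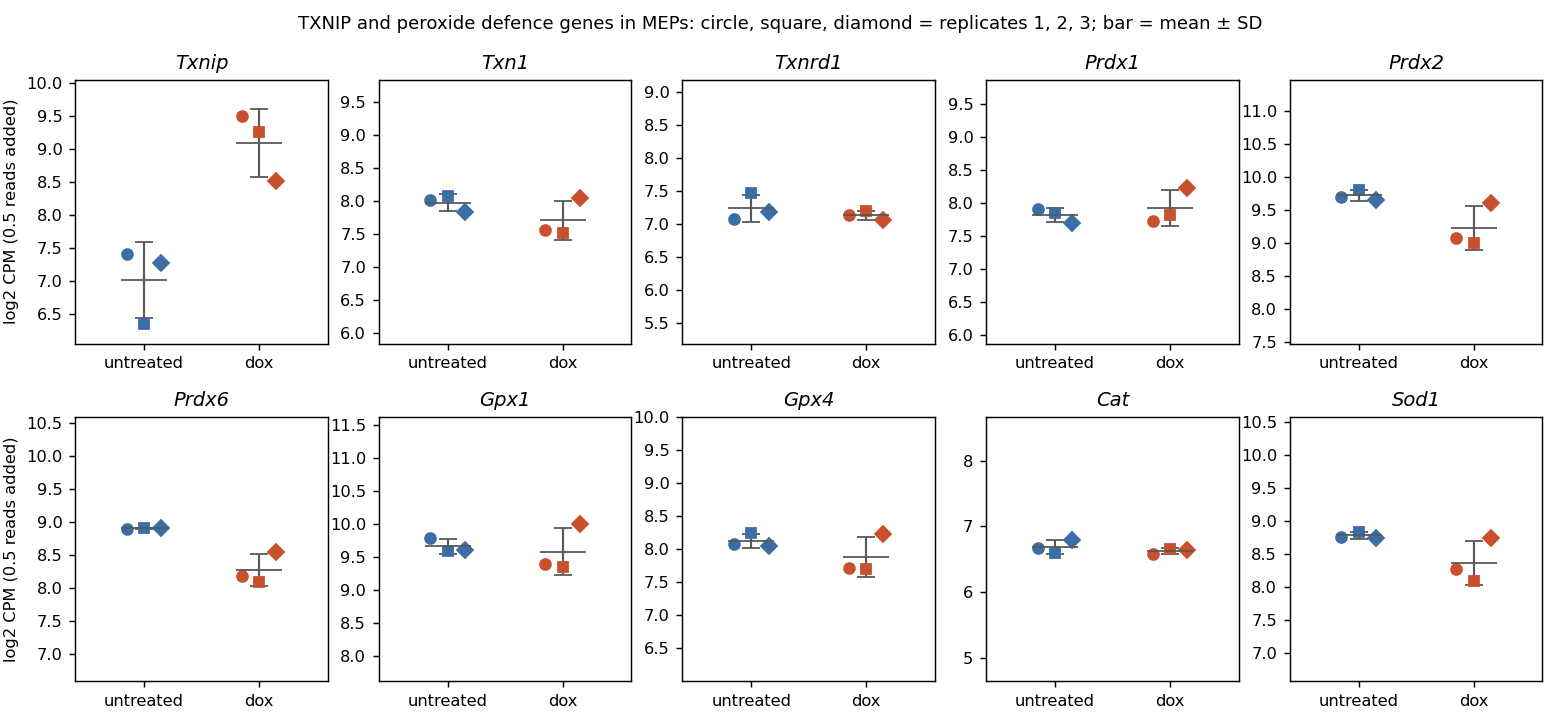
Level of each of the 10 genes on the log2 CPM scale (0.5 reads added, y axis) in untreated and dox-treated MEPs, each panel spanning the same range around its own middle. Circles, squares and diamonds are replicates 1, 2 and 3 and bars the mean ± SD (n = 3 a group); the treated *Txnip* libraries (364.4 to 719.5 CPM) all lie above the untreated ones (81.5 to 169.4 CPM), and the treated diamond lies above the circle and square in 7 panels.

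*Txn1* (chr4:57956245-57969283, minus strand) encodes the cytosolic thioredoxin that TXNIP binds, and it did not pass the test. It had 188.1, 182.5 and 263.5 CPM in the dox-treated libraries and 259.0, 267.9 and 226.9 CPM in the untreated ones. Treated replicates 1 and 2 lay below all untreated libraries, but treated replicate 3 lay among them, so the groups overlapped. The log2 difference was -0.27 ± 0.18 (SE; 95% interval -0.70 to 0.16, adjusted p = 0.35, limma). It was -0.44 without treated replicate 3 (adjusted p = 0.042) and 0.05 with GC content, length and level regressed out (adjusted p = 0.73).

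The balance of inhibitor and target transcript was read as *Txnip* reads per *Txn1* read within each library, which no scaling between libraries can alter. There were 3.83, 3.35 and 1.38 *Txnip* reads per *Txn1* read in the dox-treated libraries, against 0.654, 0.304 and 0.682 in the untreated ones. *Txnip* reads thus outnumbered *Txn1* reads in all treated libraries and were fewer in all untreated ones, without overlap. The mean log2 ratio was 1.38 ± 0.80 with dox and -0.96 ± 0.66 without (SD, n = 3 each), a difference of 2.34 (exact permutation test, two-sided, p = 0.1). The ratio was of reads and not per length, and the median coding transcript of *Txnip* is the longer (2795 against 1051 bases). In CPM per kilobase of that length, *Txnip* was above *Txn1* in treated replicate 1 (257.4 against 178.9) and treated replicate 2 (218.7 against 173.6). In treated replicate 3 *Txnip* was below *Txn1* (130.4 against 250.7).

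*Txnrd1*, the cytosolic thioredoxin reductase (chr10:82296696-82360469, plus strand), had 140.6, 146.9 and 133.5 CPM with dox and 134.5, 176.5 and 144.8 CPM without. The treated values lay within or just under the untreated range. The difference was -0.11 on the log2 scale (95% interval -0.44 to 0.22, adjusted p = 0.62, limma), and it turned to 0.01 with quantile normalisation, to 0.0039 with total reads as the library size and to 0.01 with GC content, length and level regressed out.

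Of the peroxiredoxins, *Prdx6*, which reduces peroxides and phospholipid hydroperoxides with glutathione (chr1:163170243-163181350, minus strand), was the nearest of all members to the threshold downwards. It had 292.4, 272.2 and 375.6 CPM in the dox-treated libraries and 479.4, 483.2 and 481.2 CPM in the untreated ones. All treated libraries were lower than all untreated ones, treated replicate 3 being the nearest. The untreated values were almost the same, with an SD of 0.0057 on the log2 scale, at percentile 0.294 of the genes of at least 50 CPM. The untreated mean (481.3 ± 1.92 CPM) was 1.54-fold the treated one (313.4 ± 54.8 CPM; SD, n = 3 each). The log2 difference of -0.63 ± 0.15 (SE; 95% interval -0.99 to -0.28) did not pass in limma after adjustment (adjusted p = 0.055). The call was made without treated replicate 3 (-0.77, adjusted p = 0.0090), with voom precision weights (adjusted p = 0.029) and with GC content, transcript length and level regressed out (-0.40, adjusted p = 0.034).

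*Prdx2*, the main peroxiredoxin of red cells (chr8:87493486-87498733, plus strand), had 538.2, 513.4 and 781.1 CPM with dox and 829.1, 898.1 and 808.4 CPM without. The groups did not overlap, but treated replicate 3 was close to the lowest untreated library. The log2 difference was -0.49 ± 0.18 (SE; 95% interval -0.94 to -0.04, unadjusted), with an adjusted p of 0.14 in limma, and -0.68 without treated replicate 3 (adjusted p = 0.014). With GC content, transcript length and level regressed out it was -0.20 (adjusted p = 0.16). *Prdx2* shares 177 of its 3050 exonic bases with the antisense gene *Rnaseh2a*, which had 1170 to 1924 reads per library.

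*Prdx1*, its close relative found in most cells (chr4:116358149-116373427, plus strand), had 212.1, 225.2 and 300.2 CPM with dox and 240.7, 229.6 and 207.2 CPM without. Only treated replicate 3 lay outside the untreated range, above it. The difference of 0.11 on the log2 scale (95% interval -0.29 to 0.51, adjusted p = 0.68, limma) became -0.04 without that library and 0.29 with GC content, length and level regressed out (adjusted p = 0.066).

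Of the glutathione peroxidases, *Gpx1*, which removes soluble peroxides (chr9:108241607-108242671, plus strand), had 675.3, 656.7 and 1027 CPM with dox and 886.1, 770.5 and 781.9 CPM without. Treated replicates 1 and 2 were below all untreated libraries and treated replicate 3 was above all of them. The mean difference was -0.08 on the log2 scale (95% interval -0.56 to 0.41, adjusted p = 0.82, limma), and its sign turned with quantile normalisation (0.05), with total reads as the library size (0.03) and with GC content, length and level regressed out (0.31, adjusted p = 0.14).

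*Gpx4*, which reduces phospholipid hydroperoxides in membranes (chr10:79509911-79519184, plus strand), had 209.7, 208.0 and 302.0 CPM with dox and 271.8, 304.0 and 264.8 CPM without. Its treated libraries took the same positions as for *Txn1*, replicates 1 and 2 below the untreated range and replicate 3 inside it. The log2 difference was -0.24 ± 0.18 (SE; 95% interval -0.68 to 0.19, adjusted p = 0.39, limma). It was -0.42 without treated replicate 3 (adjusted p = 0.038) and 0.13 with GC content, length and level regressed out (adjusted p = 0.41).

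*Cat*, the catalase of peroxisomes (chr2:103294006-103325317, minus strand), had the smallest spread of the 10 in treated cells. It had 95.7, 100.6 and 100.4 CPM with dox and 101.9, 97.0 and 111.2 CPM without, with the groups overlapping. The log2 difference was -0.06 ± 0.10 (SE), and its 95% interval from -0.31 to 0.19 was the narrowest of the 10 (adjusted p = 0.71, limma). Its sign turned with quantile normalisation (0.01), with total reads as the library size (0.05) and with GC content, length and level regressed out (0.06).

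*Sod1*, the cytosolic superoxide dismutase and thus a source of peroxide (chr16:90220987-90226567, plus strand), had 309.5, 273.5 and 427.8 CPM with dox and 433.7, 456.2 and 429.6 CPM without. The groups did not overlap, although treated replicate 3 was next to the lowest untreated library. The log2 difference was -0.41 ± 0.18 (SE; 95% interval -0.86 to 0.04, adjusted p = 0.20, limma). It was -0.60 without treated replicate 3 (adjusted p = 0.019) and 0.01 with GC content, length and level regressed out (adjusted p = 0.93).

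**Figure D2:**
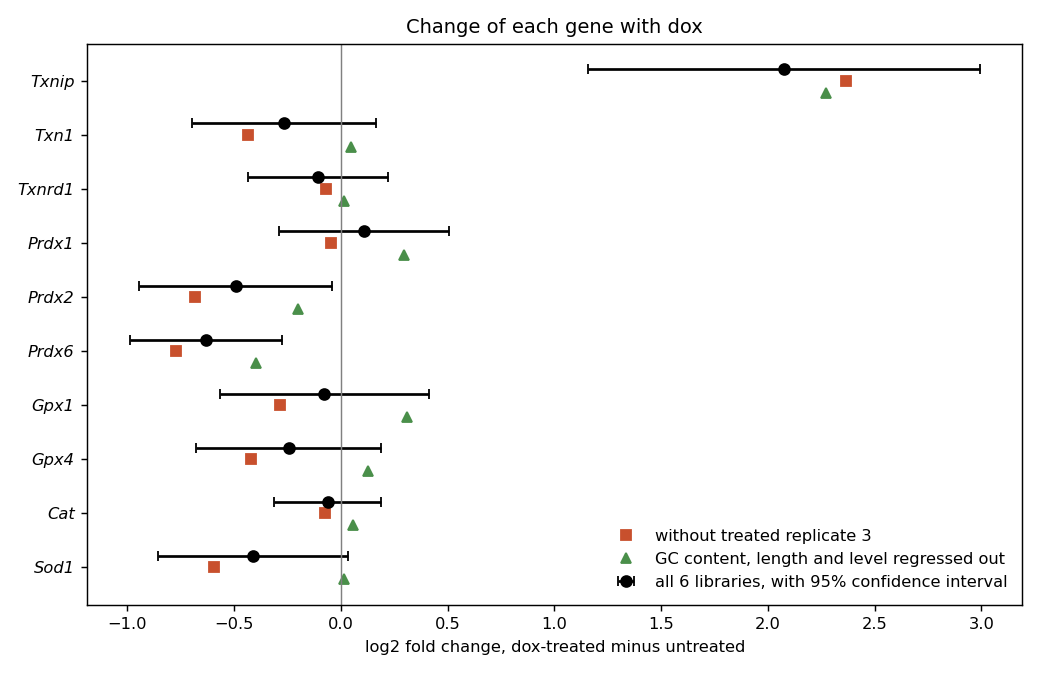
Log2 fold change of each gene, dox-treated minus untreated (x axis), with its 95% interval from the limma fit on all 6 libraries (black circles), without treated replicate 3 (squares) and with GC content, length and level regressed out (triangles). *Txnip* lies to the right at 2.08, *Prdx6* at -0.63 is the lowest of the others, and the interval of *Cat* runs from -0.31 to 0.19.

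Counted together, 1 of the 10 members passed the threshold upwards and 0 downwards in limma, and 3 had an unadjusted p under 0.05, as did 29.2% of all genes. Of all 12088 genes, 7.77% passed in either direction. With voom precision weights 1 member passed downwards (*Prdx6*; 4.72% of all genes did), and likewise 1 with GC content, length and level regressed out (*Prdx6*; 6.54% of the 11306 genes with a length). The log2 difference was below 0 for 8 of 10, with a median of -0.18 against -0.03 over all genes tested. With quantile normalisation or with total reads as the library size it was below 0 for 5 of 10. The treated libraries did not overlap the untreated ones in 4 members, *Txnip* above and *Prdx2*, *Prdx6* and *Sod1* below, where 35.9% of all genes did not overlap. These 4 had an exact permutation p of 0.1, and the other 6 of 0.3 to 0.8.

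Without treated replicate 3, 5 members passed downwards (*Txn1*, *Prdx2*, *Prdx6*, *Gpx4* and *Sod1*) and 1 upwards (*Txnip*), and the members' median was -0.35. In that fit 14.0% of all genes passed downwards and 14.9% upwards. In treated replicate 3, 7 members were above both other treated libraries, where 44.0% of all genes were, and 2 were below both (*Txnip* and *Txnrd1*; 44.2% of all genes). The gap from treated replicate 3 to the mean of the other treated libraries was 0.62 on the log2 scale for *Gpx1*, 0.57 for *Prdx2*, 0.56 for *Sod1* and -0.86 for *Txnip*.

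**Figure D3:**
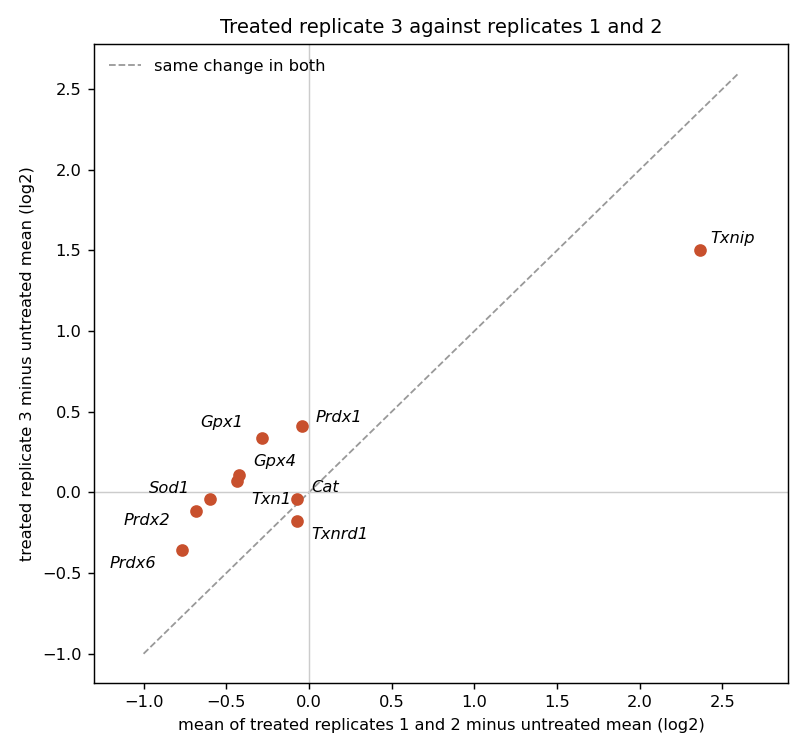
Log2 difference from the untreated mean in treated replicate 3 (y axis) against the mean of treated replicates 1 and 2 (x axis), one point a gene, with a dashed line where both would be the same. *Txnip* lies below the line and 7 of the other members lie between 0.41 and 0.62 above it, while *Txnrd1* is under it and *Cat* 0.03 above it.

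The members that were higher in treated replicate 3 were read beside other values of that library. The summed level of 20 erythroid genes was 7205 and 6973 CPM in treated replicates 1 and 2, 11826 CPM in treated replicate 3, and 9867 to 10430 CPM in the untreated libraries. *Car1*, *Car2* and *Aqp1* made up most of this sum, and the other 17 genes summed to 2308, 2430 and 3480 CPM in treated replicates 1 to 3 and 3640 to 4319 CPM untreated. Treated replicate 3 was above all untreated libraries in 10 of the 20 genes, those 3 and globin genes among them. This was not particular to it, since treated replicate 2 was above them too for *Hba-a2*, *Hbb-b1*, *Hbb-b2*, *Alas2* and *Slc4a1*. *Aqp1* was above them in all treated libraries, and *Hba-a1* was below them in all. The same share over all genes was not taken. Genes whose longest coding transcript was under 1000 bases (683 genes, *Gpx1*, *Gpx4* and *Sod1* among them) had a median gap between treated replicate 3 and the mean of the other treated libraries of 0.29, against -0.01 for 10623 longer genes. With GC content, transcript length and level regressed out, *Txn1* (0.05), *Gpx1* (0.31), *Gpx4* (0.13) and *Sod1* (0.01) turned to a difference above 0 and 8 of 10 members were above 0, while *Txnip* was at 2.27 (adjusted p = 0.030, limma) and *Prdx6* at -0.40. The part of cell composition and of transcript length in the members' values was not tested. In sorted bulk cells, fewer cells of a type and less RNA per cell cannot be told apart.

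The markers of the sorted cells and of their neighbours were given the same reading. Over all genes tested, 4.59% rose and 3.18% fell, and in the fit without treated replicate 3 these shares were 14.9% and 14.0%. All 20 erythroid genes were in the table, 0 rose and 2 fell, with a median log2 difference of -0.32, and 10 fell without treated replicate 3. Of 16 megakaryocyte genes 13 were tested, 4 rose and 1 fell (median 0.90), and their summed level was 242.5 to 578.9 CPM with dox and 146.6 to 198.1 CPM without. Granulocyte–monocyte genes fell in 14 of 21 tested (median -2.47), from a summed 2701 to 6177 CPM in untreated libraries to 597.0 to 885.7 CPM in treated ones. Mast cell and basophil genes rose in 3 of 8 tested (median 1.002, summed level 943.2 to 1131 CPM against 596.2 to 909.1 CPM). *Kit*, *Srgn* and *Gata2* made up most of this sum. Of these *Kit* was lower, and *Srgn* and *Gata2* higher, in all treated libraries than in all untreated ones. Of 9 lymphoid genes 0 passed (median 0.31, summed level 36.8 to 116.5 CPM against 33.2 to 43.5 CPM), with *Rag1* at 0 in at least one library. The megakaryocyte, granulocyte–monocyte and mast cell ranges did not overlap between the groups, nor did those of *Txnip*. Among all genes tested, 35.9% did not overlap either. Without treated replicate 3, 6 megakaryocyte genes rose and 2 fell, 4 mast cell genes rose and 1 fell, 15 granulocyte–monocyte genes fell, and 0 lymphoid genes passed. The part of these cells in the *Txnip* values was not tested.

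Compared per length, the order of the members also moved. Levels were set as RPKM, CPM per kilobase of the median coding transcript. In untreated MEPs *Gpx1* was highest (959.7 RPKM), followed by *Sod1* (680.8), *Prdx2* (563.5), *Prdx1* (341.7), *Prdx6* (287.7), *Gpx4* (286.8), *Txn1* (239.1), *Cat* (60.9), *Txnip* (48.4) and *Txnrd1* (43.9). The libraries of *Prdx6* and *Gpx4* overlapped, as did those of *Txnip* with both its neighbours.

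In dox-treated MEPs *Gpx1* (928.2 RPKM), *Sod1* (521.6) and *Prdx2* (407.3) again came first, and *Txnip* was the sixth with 202.2 ± 65.1 RPKM, from 48.4 ± 16.8 RPKM untreated (SD, n = 3 each). There its libraries overlapped those of both neighbours, *Gpx4* (245.5) and *Txn1* (201.1). *Prdx6* (187.3), *Cat* (58.3) and *Txnrd1* (40.5) came after them, and *Prdx1* (371.9) was the fourth. The libraries of *Prdx2* overlapped those of both *Sod1* and *Prdx1* in treated cells. The places depended on the length used, among them that of *Prdx1*, whose longest transcript of 2294 bases gave 98.4 RPKM in untreated cells. By the longest transcript or by all exonic bases *Txnip* was the eighth in untreated cells, and by all exonic bases it was the fifth and *Prdx2* the fourth in treated cells. *Gpx1* and *Sod1* were the highest under every length tried. The genome holds one copy of at least 95% identity of the transcripts of *Txn1* (95.7%), *Prdx1* (95.9%), *Prdx2* (96.4%), *Gpx4* (99.7%) and *Sod1* (97.2%), none of them in the table. Whether reads from such copies were counted as the members' own was not tested.

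**Figure D4:**
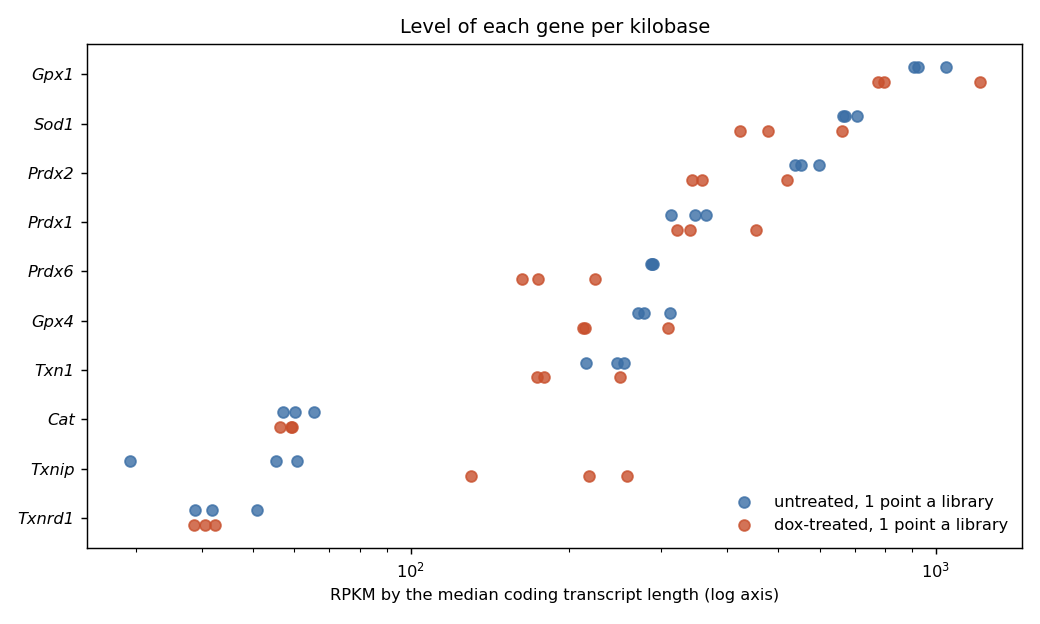
Level of each gene in RPKM by the median coding transcript (log axis), one point a library, untreated and dox-treated. *Txnip* moves from the range of *Cat* and *Txnrd1* without dox (mean 48.4) to that of *Txn1* and *Prdx6* with dox (mean 202.2), and *Gpx1* is highest in both groups.

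The genes whose level over the 6 libraries was most like that of *Txnip*, by Pearson's r of log2 CPM among 9986 genes of at least 5 CPM, were *Tia1* (r = 0.9993), *Foxo4* (0.998) and *Itpr1* (0.9975). These are descriptions over 6 libraries that share the group difference. Their log2 differences were 0.51, 0.60 and 0.57, given without a test since the genes were picked for their likeness over the same libraries. The likeness was in the order and spacing of the libraries and not in the size of the change. FOXO4, a forkhead factor, is itself known for the control of oxidative stress genes.

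The wider pathway was followed through 6 further lists with 90 genes, of which 82 were tested. Of these 2 rose and 7 fell in limma, 11.0% against 7.77% of all genes, or 2.44% against 4.59% upwards and 8.54% against 3.18% downwards. Without treated replicate 3 the counts were 5 and 22, which is 32.9% against 28.9% of all genes in that fit. By direction these were 6.10% against 14.9% upwards and 26.8% against 14.0% downwards. The 8 genes not in the table (*Mlxipl*, *Gpx7*, *Gpx8*, *Sod3*, *Msrb3*, *Me1*, *Nox4* and *Duox1*) were not analysed here. Of the 9 genes called, *Hmox1* passed with each library left out in turn, and all 9 passed without treated replicate 3. Without treated replicate 1 or 2 only *Hmox1* did, without untreated replicate 1 or 2 *Gsr* too, and without untreated replicate 3 *Sesn2* as well.

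Among 16 genes of the thioredoxin system and of the regulators and relatives of *Txnip*, 0 passed (median -0.20), and without treated replicate 3 1 rose and 2 fell. *Mlx* and *Mlxip*, which encode MLX and MondoA, had log2 differences of -0.23 and 0.34 (adjusted p = 0.38 and 0.41, limma). *Arrdc4*, the arrestin-domain gene known to share MondoA control with *Txnip*, had 258, 317 and 223 reads with dox and 185, 93 and 158 without. In CPM the groups overlapped, with treated replicate 3 (14.31) just below untreated replicates 1 and 3 (14.39 and 14.37), and the log2 difference was 0.72 ± 0.35 (SE; adjusted p = 0.23, limma). These 3 genes lie outside the rule for named genes and are given because of their known tie to *Txnip*. *Arrdc3*, another relative, was at -0.85 (adjusted p = 0.062) and mitochondrial *Txnrd2* at -0.51 (adjusted p = 0.12, limma). *Txnrd2* passed without treated replicate 3, at -0.68 (adjusted p = 0.016), and *Arrdc3* did not (adjusted p = 0.058), while with GC content, length and level regressed out *Arrdc3* passed (-1.06, adjusted p = 0.020) and *Txnrd2* did not (adjusted p = 0.14).

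Glutathione and NADPH supply had 1 gene higher and 1 lower of 15 tested (median -0.24), and 1 and 7 without treated replicate 3. *Gsr*, the reductase that returns oxidised glutathione to its reduced form, had 744, 748 and 989 reads with dox and 2612, 1932 and 1639 without. All treated libraries were below all untreated ones, and the mean fell from 165.0 ± 33.2 to 58.0 ± 4.77 CPM (SD, n = 3 each), a log2 difference of -1.49 ± 0.17 (SE; adjusted p = 0.012, limma). *Glrx2*, a mitochondrial glutaredoxin, rose by 0.65 on the log2 scale (adjusted p = 0.042).

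The NRF2 and BACH1 axis had 1 gene higher and 2 lower of 18 tested (median -0.33), and 2 and 6 without treated replicate 3. *Hmox1*, which opens the haem ring and is repressed by BACH1, had 94, 127 and 88 reads with dox and 10, 13 and 9 without. Its mean rose 8.61-fold, from 0.852 ± 0.096 to 7.34 ± 1.94 CPM (SD, n = 3 each), and the log2 difference was 3.02 ± 0.21 (SE; adjusted p = 0.0044, limma). With a pseudocount of 1 CPM the difference of *Hmox1* was 2.15 (adjusted p = 0.0030, limma). *Mt1*, a metallothionein, fell by 0.75 and *Abcc1*, an exporter of glutathione conjugates, by 0.96 on the log2 scale (adjusted p = 0.041 and 0.046, limma). With GC content, length and level regressed out the difference of *Mt1*, whose longest transcript has 631 bases, was -0.39 (adjusted p = 0.038). The members named in this list thus moved in opposite directions.

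Of 14 other peroxide-removing and repair genes 0 rose and 1 fell (median -0.20), *Sesn2*, a sestrin, with a log2 difference of -0.95 (adjusted p = 0.033, limma). These counts were 0 and 3 without treated replicate 3. *Sepx1*, a selenoprotein that repairs oxidised methionine, was next by p in this list at -0.36 and did not pass (adjusted p = 0.12, limma). Of 13 genes of selenoprotein synthesis 0 rose and 1 fell (median -0.09), *Sephs2*, which makes the selenium donor for selenocysteine. *Sephs2* had 724, 770 and 997 reads with dox and 1180, 1295 and 889 without, and a log2 difference of -0.62 ± 0.12 (SE; adjusted p = 0.041, limma). Its reads overlapped between groups before scaling by library size. *Sepp1*, a secreted selenium carrier, was next by p in this list at 0.97 and did not pass (adjusted p = 0.085, limma). It passed without treated replicate 3, at 1.19 (adjusted p = 0.032), and in that fit 1 gene of this list rose and 2 fell.

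Of 6 genes of the NADPH oxidase, the phagocyte enzyme that makes superoxide, 0 rose and 2 fell (median -0.80), with the same counts without treated replicate 3. *Ncf1* had 159, 132 and 85 reads with dox and 699, 321 and 390 without (-2.06, adjusted p = 0.039, limma), and *Ncf4* was at -1.49 (adjusted p = 0.049). With total reads as the library size neither gene passed, and with the robust form of eBayes *Ncf4* did not. Both are known from granulocytes and monocytes, mature cells that the lineage-negative gate is meant to remove. The markers of that lineage fell in the same libraries, and their part in these values was not tested.

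**Figure D5:**
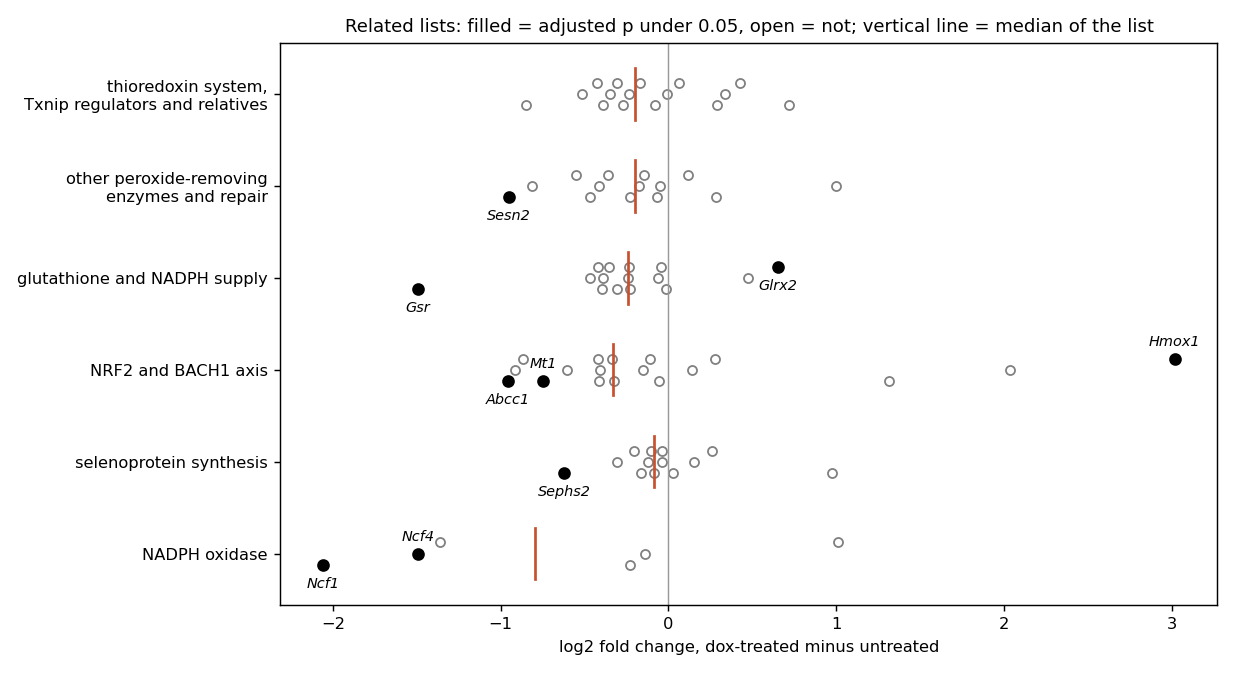
Log2 fold change, dox-treated minus untreated (x axis), of each tested gene in the lists of related genes (rows), filled where the gene passed at an adjusted p of 0.05 in limma. *Hmox1* at 3.02 lies farthest to the right and *Ncf1* at -2.06 is the lowest of the filled points of the pathway lists.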

How the data were processed

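The 6 libraries were made from sorted MEPs with a NEBNext Ultra kit and sequenced on an Illumina GAIIx. The authors removed adapters with Cutadapt, quantified reads with RSEM on NCBIM37 and normalised them with limma. They deposited log2 CPM values with 0.5 reads added. How library sizes were normalised, which low genes were dropped and whether strand was used are not given in the sources used here. Whole reads were recovered from the deposited values and used for depth and read ratios.

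Differences were fitted with limma 3.58.1 (R 4.3.3; lmFit and eBayes, no block or weights) on the 12088 genes that reached 1 CPM in 3 or more libraries, and p-values were adjusted by Benjamini–Hochberg over all of them at 0.05. Fold changes understate the change of genes with few reads. Two-sided exact permutation tests were run on single values. The members, the lists and the tests were chosen with earlier results of these data known. Named genes were the 10 members, *Nanog*, every gene of a pathway list past the threshold (the 2 with the smallest p where fewer than 2 passed) and the 3 genes most like *Txnip*. GENCODE annotation of NCBIM37 and RefSeq promoter windows of GRCm38.p6 were used. Alternatives covered the filter, the pseudocount, scaling, weights, a replicate block and each library left out. Correction for GC content, length and level, and other gene lengths, were added after seeing the data. Python 3.11.15 was used for tables and plots, with pandas 2.3.3, numpy 2.4.6, scipy 1.17.1 and matplotlib 3.10.9.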

Additional observations from a re-analysis of the deposited data

How the results depend on the processing

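Of 200 values of the 10 members under the alternatives, 158 kept their direction and their side of the threshold, 6 lost the threshold, 19 gained it and 17 changed sign. Of 340 values of 17 other genes (*Nanog*, 13 pathway genes and the 3 genes most like *Txnip*), 254 kept both, 48 lost the threshold, 38 gained it and none changed sign. Of these 38, *Foxo4* had 9, *Itpr1* 7 and *Tia1* 6, and these genes were picked for their likeness to *Txnip* over the same libraries. Over all genes, 555 were higher and 384 lower. The counts were 909 and 747 when the variance followed the mean level, 2515 and 2601 with array weights, 855 and 739 with GC content, length and level regressed out, 1273 and 939 at an adjusted p of 0.1, and with a replicate block 53 and 29, or 575 and 351 when the block was combined with voom weights. With one library left out they ranged from 92 to 1801 and from 36 to 1687, the highest being without treated replicate 3.

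The same-numbered libraries of the groups did not deviate together (correlations of 0.0184, -0.121 and -0.299 for numbers 1, 2 and 3, and -0.204 to 0.238 for other pairs). With 3 libraries a group this cannot show whether the numbers pair the samples, and the labels do not say. With the replicate block *Txnip* was at 2.08 with an adjusted p of 0.093, 0 members passed upwards and 0 downwards, and of the pathway genes 1 passed upwards and 0 downwards. With the replicate block and voom weights together *Txnip* was at 2.08 with an adjusted p of 0.0073 (limma), 1 member passed in each direction, and 2 pathway genes were higher and 9 lower.

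With one library left out, *Txnip* ranged from 1.75 to 2.36, members higher from 0 to 1 and lower from 0 to 5, and pathway genes higher from 1 to 5 and lower from 0 to 22. Members lower numbered 5 with array weights and 1 under each of a 5 CPM filter, a pseudocount of 1 CPM, the mean–variance trend, voom weights, quantile normalisation, total reads, the block with voom weights, the regression on GC content and an adjusted p of 0.1. Pathway genes higher and lower numbered 8 and 31 with array weights and 4 and 11 at an adjusted p of 0.1, and 5 were higher with the regression on GC content.

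The sign turned under quantile normalisation for *Txnrd1* (0.0121), *Gpx1* (0.0457) and *Cat* (0.0071), under total reads for *Txnrd1* (0.0039), *Gpx1* (0.0337) and *Cat* (0.0484), and under the regression on GC content for *Txn1* (0.0454), *Txnrd1* (0.0132), *Gpx1* (0.31), *Gpx4* (0.13), *Cat* (0.0591) and *Sod1* (0.0130). It also turned for *Prdx1* with array weights (-0.0037). With one library left out, *Prdx1* ranged from -0.0447 without treated replicate 3 to 0.206, *Gpx1* from -0.285 without treated replicate 3 to 0.0375 (above 0 without treated replicate 1 or 2), and *Txnrd1* from -0.189 to 0.0065 without untreated replicate 2. The cause was not tested. Total reads as the library size moved the median of all genes by 0.11. Each member had at least 1103 reads in every library, and each group had 3 libraries. The part of depth and of the number of libraries in the calls was not tested.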

Other observations

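*Maff*, a small MAF partner of NRF2 and BACH1, had 33, 31 and 25 reads in the dox-treated libraries and 6, 3 and 11 in the untreated ones, without overlap in reads or in CPM, and a log2 difference of 2.04 ± 0.51 (SE; adjusted p = 0.066, limma). *Bach2*, a relative of BACH1, had 215, 202 and 97 reads against 78, 38 and 61, also without overlap in either, at 1.32 ± 0.46 (SE; adjusted p = 0.13, limma). *Bach1* had 752, 744 and 733 reads against 614, 642 and 519 and a log2 difference of 0.14 (adjusted p = 0.41, limma). The other small MAF genes lay on the other side of 0, *Mafk* at -0.33 and *Mafg* at -0.41 (adjusted p = 0.17 and 0.16, limma), with all treated libraries below all untreated ones in CPM. Of all genes tested, 35.9% did not overlap between the groups. These 5 genes were chosen after their values were seen, for their known tie to *Hmox1*, and none passed the test.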
